A study of Populus alba x Populus glandulosa with 18 samples.

Results

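The 182 genes described here were at least 1 log2 unit above wild type (WT) in both the bHLH151 overexpression line and the bhlh151 knockout line, and within 0.5 of WT in both bHLH58 lines. They were chosen from the measured values. The rule took 40951 gene IDs with at least 1 FPKM (fragments counted per gene, scaled to transcript length and to the size of the library) in at least 3 of 18 libraries, out of 71159 IDs in the deposited table. For each line it took the mean of log2(FPKM + 1) minus the WT mean, here called the difference from WT. Of the 40951 IDs, 35914 lay within 0.5 of WT in both bHLH58 lines, and 182 of these passed the threshold of 1 in both bHLH151 lines. The count depends on the settings: it was 301 under median-of-ratios scaling, and 55 with the bHLH58 lines held within 0.25 of WT. The bhlh58/151 double knockout had no part in the choice.

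The study sequenced root RNA of the 84K poplar, a hybrid of Populus alba and Populus glandulosa, in 6 groups of 3 libraries. The groups were bHLH151-OE (overexpression, line 17), bhlh58/151-KO (loss of both genes, line 32), bhlh151-KO (line 40), bhlh58-KO (line 6), bHLH58-OE (line 20) and untransformed WT. Every engineered genotype is represented by 1 line, so effects of genotype and of line cannot be told apart. The sources used here give no promoter for the overexpression constructs, no edit for the knockout lines and no plant age. Whether the 3 libraries of each group are separate plants is not stated in the labels, so the p-values below reflect spread among libraries that may be technical replicates.

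Basic helix-loop-helix (bHLH) proteins are transcription factors that bind DNA as pairs, through a basic stretch beside the helix-loop-helix that joins the partners. In Arabidopsis, members of the family are known for their part in root hair formation and in the growth of the vascular tissue of the root. The deposited table does not pair its IDs with gene names, so the 182 genes appear by ID, their known functions are not stated, and the IDs of bHLH58 and bHLH151 were not identified. The overexpression and knockout labels and the root origin were therefore not checked on marker genes. No sequence or coordinate is given for the same reason.

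Libraries of a group lay closer together than libraries of different groups. Pearson correlations of log2 values over tested IDs were 0.981 to 0.987 within groups and 0.918 to 0.978 between groups. Depth is unknown, and 36450 to 38499 IDs reached 1 FPKM per library. No 2 libraries held identical values. In whole roots, a higher share of a cell type that expresses a gene and more RNA of that gene per cell cannot be told apart. The same holds for a lower share and less RNA per cell.

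The differences from WT that chose the genes are given as a description, with no test. The difference from WT ran from 1.00 to 2.16 in bHLH151-OE, with a median of 1.14, and from 1.01 to 3.48 in bhlh151-KO, with a median of 1.65. In FPKM, the median gene was at 2.44 times its WT mean in bHLH151-OE and at 3.52 times in bhlh151-KO. The overexpression line set the threshold for most of them, since in 173 of 182 the smaller of both differences was that of bHLH151-OE. The difference was narrow there, with quartiles of 1.06 and 1.29, and broad in bhlh151-KO, with quartiles of 1.36 and 1.99. All 3 libraries of both bHLH151 lines lay above the other 12 libraries in 157 of the 182 genes, the double knockout included. The rule favours this separation from the WT and bHLH58-line libraries. No share over all tested IDs is given for it, so the count is a description.

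**Figure D1:**
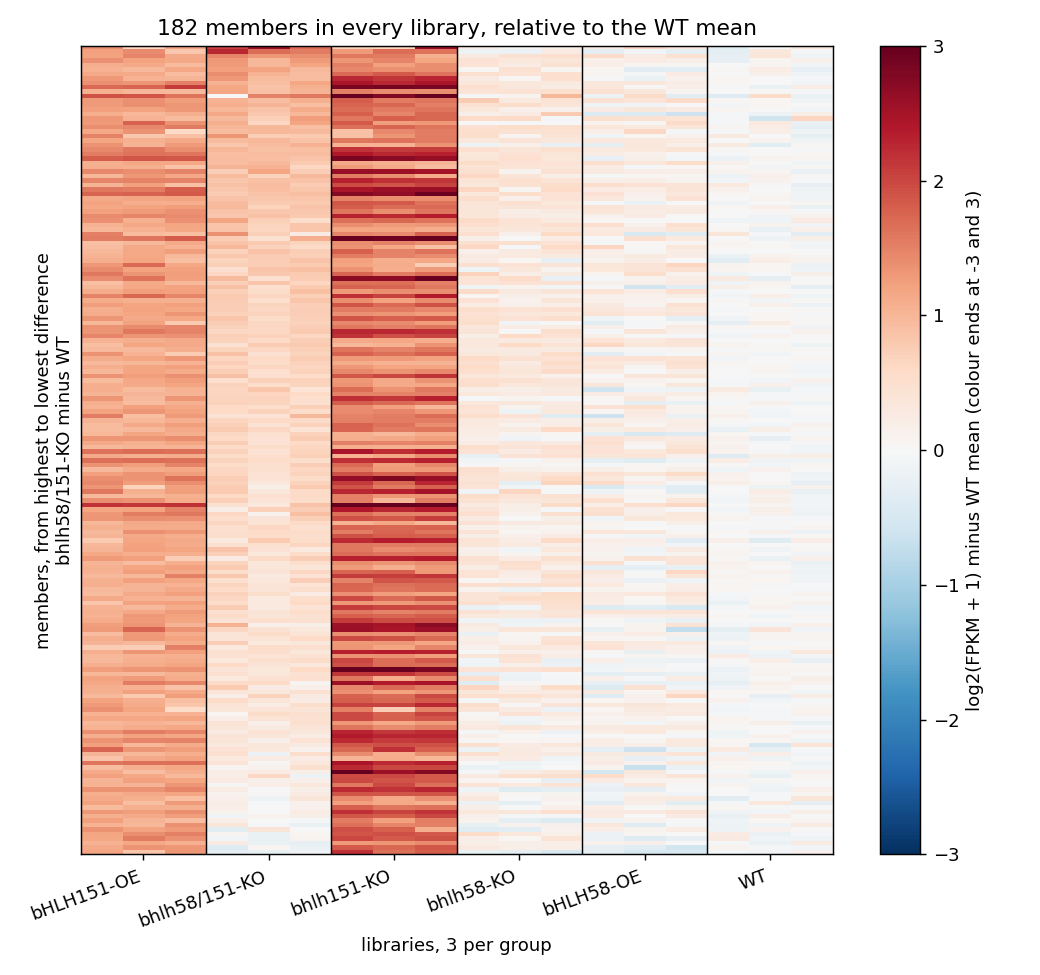
Each row is 1 of the 182 genes and each column 1 of the 18 libraries. Colour gives log2(FPKM + 1) minus the WT mean of that gene, and rows run from the highest to the lowest difference of bhlh58/151-KO from WT. The bHLH151-OE and bhlh151-KO columns are high by choice, and the bhlh58/151-KO columns lie between them and WT in most rows (medians of 1.14, 1.65 and 0.59).

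PAxG07Gg0080800 had the largest difference that both bHLH151 lines reached. It was at 15.0, 14.5 and 15.3 FPKM in bHLH151-OE, at 42.0, 37.1 and 37.7 in bhlh151-KO, and at 2.59, 2.76 and 2.38 in WT. The double knockout stayed low for this gene, at 3.93, 3.45 and 5.49 FPKM, where bhlh58-KO had 3.33, 3.11 and 4.31 and bHLH58-OE had 3.11, 4.06 and 4.49. Its double-knockout and bHLH58-line libraries overlapped, while every library of both bHLH151 lines stood apart from all others. PAxG18Gg0125500, next in that order, was at 7.91, 8.36 and 8.16 FPKM in bHLH151-OE, at 16.9, 15.5 and 14.3 in bhlh151-KO, and at 1.22, 1.70 and 1.66 in WT. Here the double knockout had a level of its own, at 3.82, 3.70 and 3.57 FPKM, above the 2.23, 2.55 and 2.16 of bhlh58-KO. PAxG04Ag0091200 had the highest mean of the 182 in bhlh151-KO. It was at 230.4, 229.1 and 243.8 FPKM in bHLH151-OE, at 328.4, 331.5 and 329.1 in bhlh151-KO, and at 117.1, 113.3 and 110.9 in WT. In the double knockout it was at 178.6, 173.3 and 170.2 FPKM, with no overlap with any other group.

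Genes on either side of the threshold had nearly the same values. Just inside were PAxG03Gg0082900 and PAxG06Ag0214400, both with a difference from WT of 1.00 in bHLH151-OE, and with 1.38 and 1.60 in bhlh151-KO, in that order. Just outside were PAxG09Ag0083900 and PAxG19Gg0057500, both also 1.00 in bHLH151-OE after rounding, and 1.20 and 1.22 in bhlh151-KO. In all, 67 of the 182 had a smaller difference of 1 to 1.1, and 106 further IDs that met the bHLH58 condition lay between 0.9 and 1. Values ran on without a gap across the threshold.

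The bHLH58 lines were close to WT by choice, yet leaned to the same side as the bHLH151 lines. The median difference from WT was 0.28 in bhlh58-KO and 0.16 in bHLH58-OE, against 0.01 and 0.00 over all tested IDs. It was above 0 in 161 of 182 genes in bhlh58-KO and in 137 in bHLH58-OE. In bhlh58-KO 108 genes were over 0.25 and 2 under -0.25, and in bHLH58-OE 56 were over 0.25 and 13 under -0.25. These values belong to the contrasts of the rule and are a description, with no test. All of the differences share the WT libraries. The rule favours genes with low values there, which favours differences above 0 in the bHLH58 lines too. No share over all tested IDs is given for the counts.

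**Figure D2:**
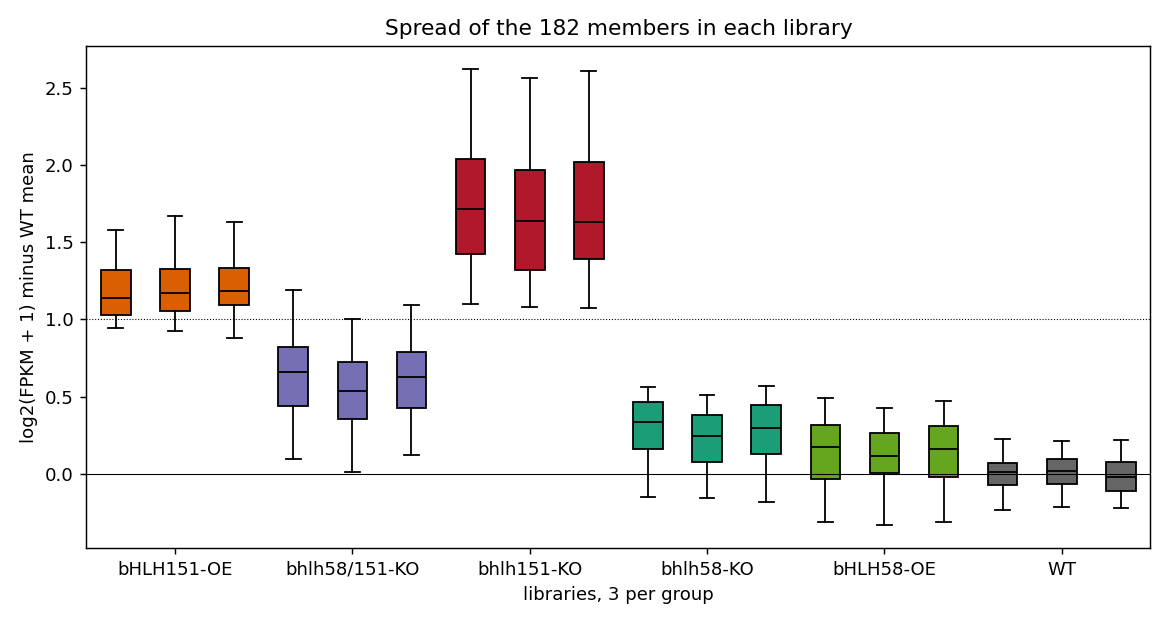
Each box shows the 182 genes in 1 library as log2(FPKM + 1) minus the WT mean, with the median, the quartiles, and whiskers from the 5th to the 95th percentile. The dotted line marks the threshold of 1. Medians of the 3 libraries were 1.14 to 1.18 in bHLH151-OE, 0.53 to 0.66 in bhlh58/151-KO, 1.63 to 1.71 in bhlh151-KO, 0.25 to 0.33 in bhlh58-KO and 0.11 to 0.17 in bHLH58-OE.

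The double knockout, which carries a bhlh151 knockout too, asks whether the higher level of these genes is also found in a line that lacks both factors. Most were higher than in WT there, by less than in either bHLH151 line, where the rule asked for a difference of at least 1. In a limma fit across all tested IDs (Benjamini-Hochberg adjusted p under 0.05), 149 of the 182 genes were called higher in bhlh58/151-KO than in WT, where 12.6% of all tested IDs were called higher. None was called lower, beside 16.3% of all tested IDs, and none was lower at an unadjusted p under 0.05. The median difference was 0.59 for the 182 genes and -0.06 for all tested IDs. The double-knockout libraries had no part in the rule, but the WT libraries did, so the comparison is not independent of the choice. In 154 genes every double-knockout library was above every WT library, beside 17.6% of all tested IDs.

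The size of the difference in the double knockout varied from gene to gene. It was at least 1 in 13 genes, from 0.5 to 1 in 108, from 0 to 0.5 in 56 and under 0 in 5. Relative to the difference in bhlh151-KO its median was 35.2%, with quartiles of 23.6% and 50.7%, and relative to bHLH151-OE it was 49.0%, with quartiles of 38.3% and 62.7%. The rule asked for at least 1 in both bHLH151 lines and nothing of the double knockout, which favours low percentages. In 170 genes the double-knockout mean lay above WT and below both bHLH151 lines. All 3 double-knockout libraries lay above all 9 libraries of WT and the bHLH58 lines in 93 genes, and 76 of these were also below all 6 libraries of the bHLH151 lines. The rule set the bHLH151 lines high and kept the bHLH58 lines near WT, which favours a place between them. No share over all tested IDs is given for these counts, so they are a description. The 33 genes not called against WT had 95% confidence intervals with a median half-width of 0.32 on the log2 scale, so small differences were not resolved in them. The intervals are not adjusted for the number of IDs tested, and some differences larger than 0.32 also went uncalled.

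PAxG05Ag0210500 and PAxG17Ag0015500 had the largest rises in the double knockout, and were the 2 genes whose mean there was above both bHLH151 lines. PAxG17Ag0015500 was at 70.6, 46.5 and 43.1 FPKM in bhlh58/151-KO, and at 11.3, 17.7 and 13.4 in WT (log2 fold change 1.84, SE 0.19, limma adjusted p = 2.4e-06). Its bHLH151-OE libraries, at 33.7, 38.5 and 25.2 FPKM, were below all double-knockout libraries, and those of bhlh151-KO, at 35.3, 46.4 and 45.4, overlapped with them. PAxG05Ag0210500 was at 12.9, 19.9 and 10.1 FPKM in bhlh58/151-KO, and at 1.74, 2.41 and 3.36 in WT (2.10, SE 0.42, limma adjusted p = 0.00176). Its bhlh151-KO libraries were uneven, at 4.60, 4.44 and 20.2 FPKM. Without the third, its difference from WT in bhlh151-KO was 0.68 and it would not be among the 182. In bHLH151-OE its libraries were at 7.99, 4.33 and 6.78 FPKM.

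**Figure D3:**
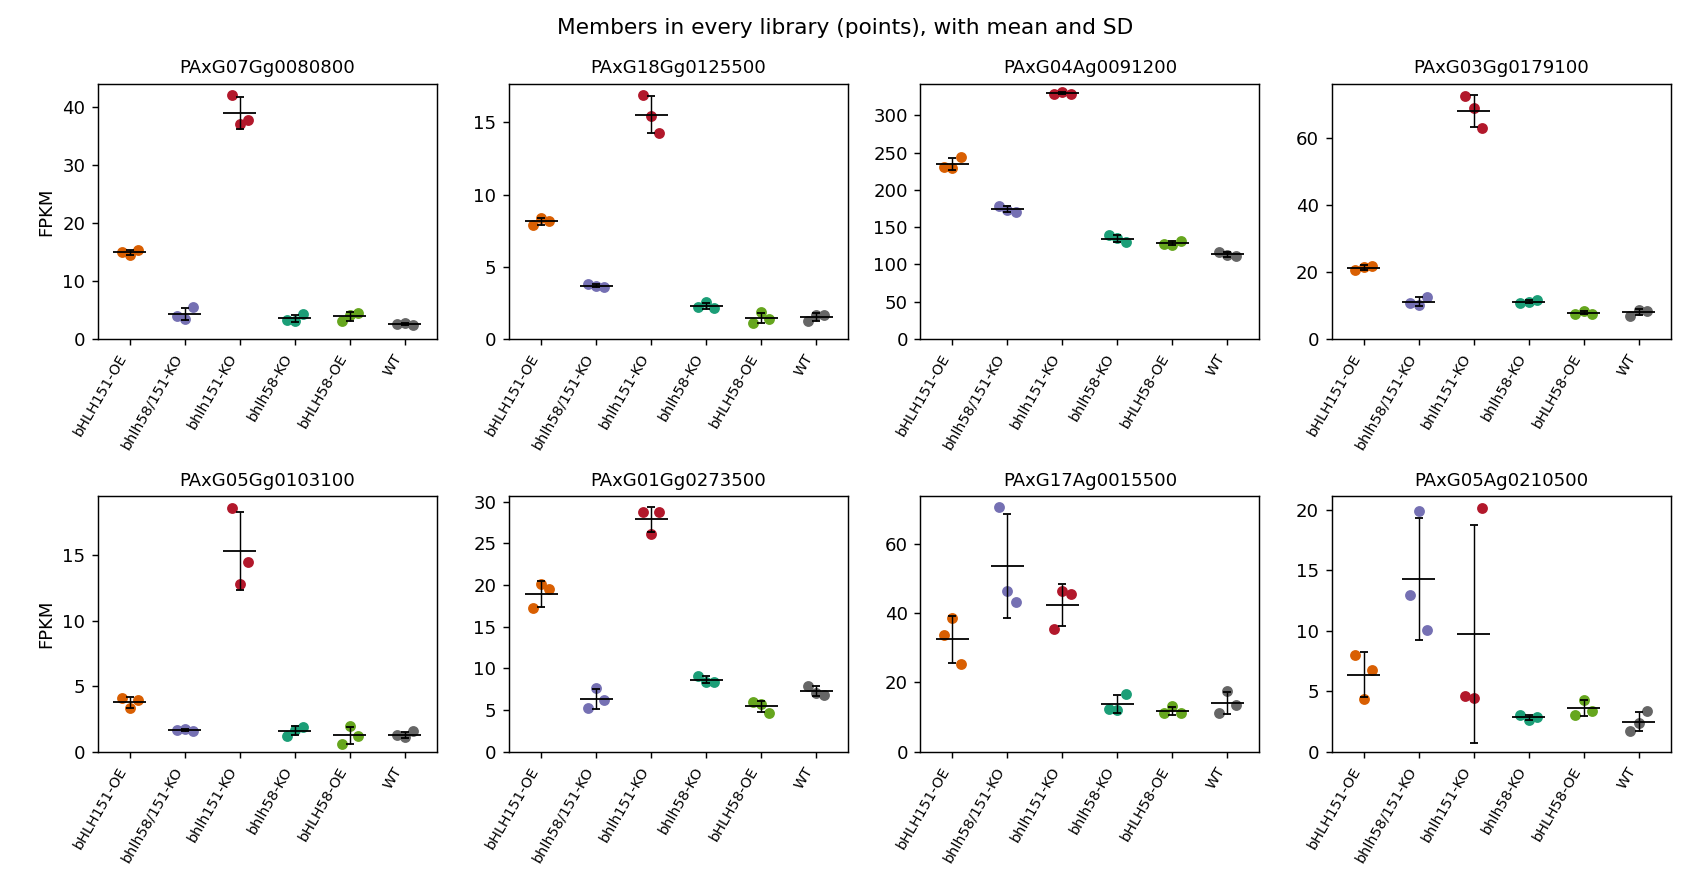
FPKM of 8 genes in every library (points, 3 per group), with the group mean (line) and SD (bar), each panel on its own linear axis from 0. The 6 genes of the first row and the left of the second are highest in bhlh151-KO, from 15.3 FPKM in PAxG05Gg0103100 to 329.7 in PAxG04Ag0091200. PAxG17Ag0015500 and PAxG05Ag0210500 have their highest mean in bhlh58/151-KO, at 53.4 and 14.3 FPKM.

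Set against bhlh58-KO, the double knockout differs by label in the further loss of bHLH151, though both are single, different lines. This contrast holds no WT and no bHLH151-line library. Of the 182, 83 were higher in bhlh58/151-KO than in bhlh58-KO, beside 3.81% of all tested IDs. A further 2 were lower, beside 5.27%, and 97 were not called, with a median half-width of 0.28 for their 95% intervals. The median difference was 0.34 for the 182 genes and -0.06 for all tested IDs. In 102 genes every double-knockout library was above every bhlh58-KO library, beside 9.16% of all tested IDs. The rule used the bhlh58-KO libraries and kept that line close to WT, which bounds its level from above. The calls and p-values of this comparison are therefore not independent of the choice. Both genes named in the comparison with WT also led here, PAxG05Ag0210500 with a log2 fold change of 1.94 (SE 0.42 and limma adjusted p = 0.00883) and PAxG17Ag0015500 with 1.86 (SE 0.19, limma adjusted p = 1.43e-05). Their bhlh58-KO libraries were at 3.05, 2.61 and 2.87 FPKM for PAxG05Ag0210500 and at 12.4, 12.2 and 16.8 for PAxG17Ag0015500, and no library of either gene overlapped between the groups.

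The 2 genes called lower in the double knockout than in bhlh58-KO had small differences. PAxG01Gg0273500 was at 5.26, 7.64 and 6.21 FPKM in bhlh58/151-KO, and at 9.09, 8.38 and 8.42 in bhlh58-KO (-0.40, SE 0.11, limma adjusted p = 0.0234). PAxG15Ag0119900 was at 29.2, 27.0 and 32.2 FPKM in bhlh58/151-KO, and at 33.9, 34.7 and 39.3 in bhlh58-KO (-0.28, SE 0.087, limma adjusted p = 0.0485). The call of PAxG01Gg0273500 ended under median-of-ratios scaling (limma adjusted p = 0.0714), and that of PAxG15Ag0119900 did too (0.206). Leaving out any bhlh58-KO library, or replicate 1 of bhlh58/151-KO, also ended both calls. Over all alternatives the limma adjusted p ran from 0.00533 to 0.13 for PAxG01Gg0273500 and from 0.00921 to 0.206 for PAxG15Ag0119900. In bhlh151-KO the same genes were at 28.7, 26.1 and 28.8 FPKM and at 128.7, 113.3 and 125.9 FPKM, in that order.

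Taken gene by gene, 71 of the 182 were called on all 3 sides of the double knockout, higher than WT, higher than bhlh58-KO and lower than bhlh151-KO. Another 68 were called higher than WT without being called higher than bhlh58-KO. Neither comparison called 29 genes. The rule used WT, bhlh58-KO and bhlh151-KO, which favours calls on all 3 sides. No share over all tested IDs is given for these counts, so they are a description. PAxG02Ag0145700, chosen after its values were seen, is 1 of the 68, at 111.3, 105.0 and 114.4 FPKM in bhlh58/151-KO, at 106.8, 110.8 and 105.9 in bhlh58-KO, and at 89.2, 85.9 and 84.6 in WT. Its double-knockout and bhlh58-KO libraries overlapped, both clear of WT, and bhlh151-KO stood far above them at 265.9, 233.3 and 252.6 FPKM.

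The double knockout was next set against bhlh151-KO, to see whether the level of the single knockout is kept when bHLH58 is lost as well. It mostly was not. Of the 182 genes, 168 were lower in bhlh58/151-KO than in bhlh151-KO, beside 10% of all tested IDs. None was called higher, beside 15.7%, and none was higher at an unadjusted p under 0.05. At least a 2-fold lower value on the log2(FPKM + 1) scale was called in 96 genes, a cut-off for which no share of all tested IDs is given. The median difference was -1.05, against 0.06 for all tested IDs. The rule chose genes that are high in bhlh151-KO, which favours a negative difference here. The counts, calls and p-values of this comparison, those of single genes below included, therefore describe the chosen genes and are no independent evidence.

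PAxG07Gg0080800, described above, had the largest difference between the knockouts (-2.93, SE 0.13, limma adjusted p = 2.78e-12). PAxG05Gg0103100 was at 1.68, 1.73 and 1.61 FPKM in bhlh58/151-KO, and at 18.6, 12.8 and 14.5 in bhlh151-KO, a log2 fold change of -2.59 with an SE of 0.17 (limma adjusted p = 9.06e-10). The WT libraries were at 1.25, 1.12 and 1.57 FPKM, just under those of the double knockout, a difference that was not called (limma adjusted p = 0.386). The 14 genes without a call against bhlh151-KO included PAxG05Ag0210500 and PAxG17Ag0015500.

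**Figure D4:**
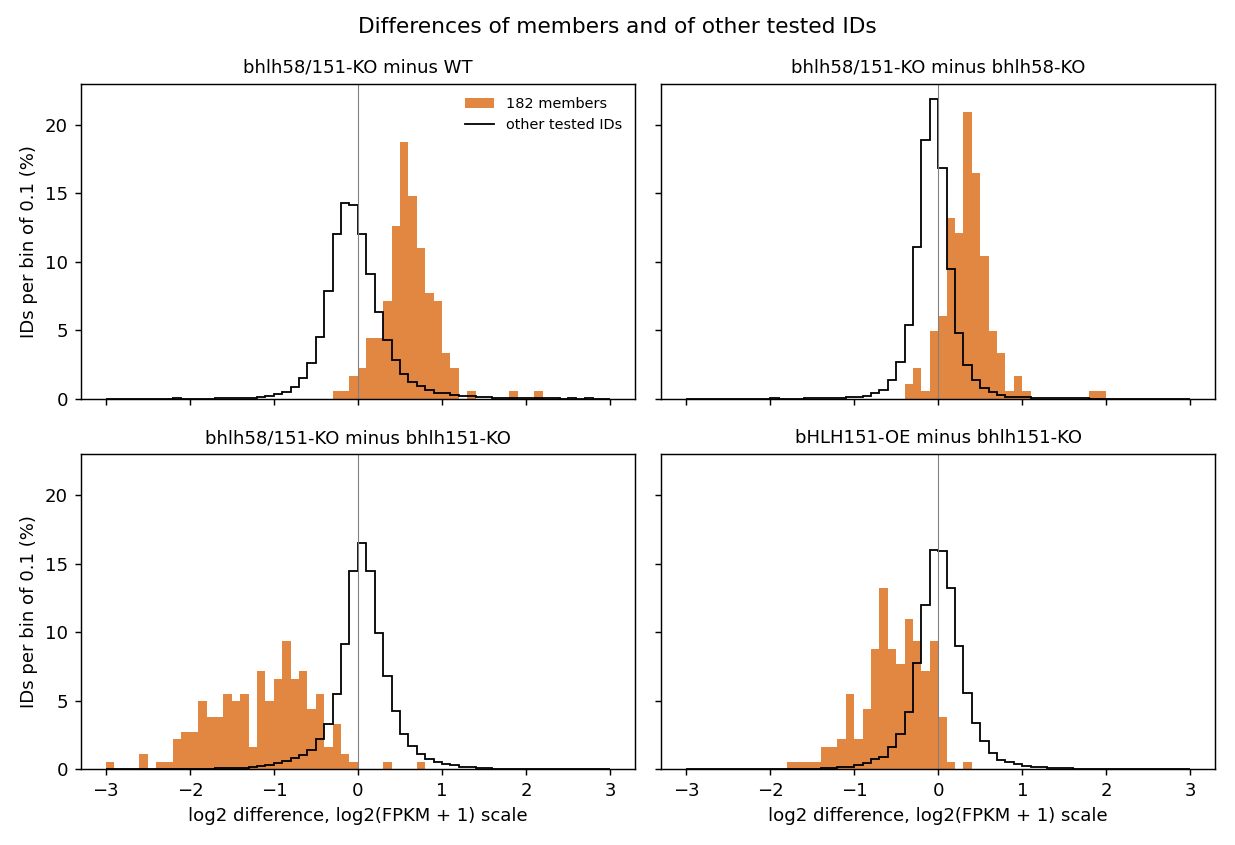
Share of genes per bin of 0.1 by log2 difference, for the 182 genes (filled) and the other tested IDs (line), in 4 comparisons. The 182 genes are centred above 0 in bhlh58/151-KO minus WT and minus bhlh58-KO (medians 0.59 and 0.34), and below 0 in bhlh58/151-KO and bHLH151-OE minus bhlh151-KO (medians -1.05 and -0.51).

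Between the bHLH151 lines, these genes were mostly lower with overexpression than with knockout. The rule chose the genes on the values of both lines, so the calls and p-values of this comparison describe the chosen genes and are no independent evidence. Of the 182, 117 were called lower in bHLH151-OE than in bhlh151-KO, beside 9.39% of all tested IDs. Of the 117, 24 were at least 2-fold lower, a cut-off for which no share of all tested IDs is given. A single gene was called higher, beside 11.4%, and 64 were not called, with a median half-width of 0.26 for their 95% intervals. The median difference was -0.51 for the 182 genes and 0.02 for all tested IDs. The rule set the same threshold for both lines and did not use the difference between them.

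PAxG05Gg0103100 showed the largest gap, at 4.07, 3.32 and 3.93 FPKM in bHLH151-OE and 18.6, 12.8 and 14.5 in bhlh151-KO, a log2 fold change of -1.76 with an SE of 0.17 (limma adjusted p = 4.11e-07). PAxG03Gg0179100 was at 20.4, 21.6 and 21.9 FPKM in bHLH151-OE and at 72.3, 68.7 and 62.8 in bhlh151-KO, a log2 fold change of -1.63 with an SE of 0.088 (limma adjusted p = 1.51e-10). For both genes the groups were far apart, and for PAxG03Gg0179100 the double knockout, at 10.6, 10.1 and 12.6 FPKM, overlapped with bhlh58-KO, at 10.8, 11.0 and 11.7. The gene called higher in bHLH151-OE was PAxG13Gg0037500, chosen after its values were seen, at 13.1, 17.6 and 11.6 FPKM there and 11.8, 11.3 and 8.49 in bhlh151-KO, a log2 fold change of 0.38 with an SE of 0.13 (limma adjusted p = 0.0466). Its groups overlapped, and the call ended in at least 5 of the 7 fits that kept every library of both groups but changed another choice. Without replicate 1 or 2 of bhlh151-KO its difference from WT in that line was 0.93 or 0.96, and it would not be among the 182. The call also ended without replicate 1 or 2 of bHLH151-OE, or without replicate 2 or 3 of bhlh151-KO.

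The order of the group means of log2(FPKM + 1) was shared by many of the genes. The order bhlh151-KO, bHLH151-OE, bhlh58/151-KO, bhlh58-KO, bHLH58-OE, WT, from highest to lowest, held in 74 of the 182. With both bHLH58 lines exchanged it held in 31, and with bHLH58-OE and WT exchanged in 26. In total 23 orders occurred. The rule placed both bHLH151 lines above WT and the bHLH58 lines, and did not set the order of the bHLH151 lines or the place of the double knockout. It favours a place between them for the double knockout, and low WT values, as said above. No share over all tested IDs is given for these orders, so the counts are a description. Of the neighbours in the most frequent order, the comparisons above cover bhlh151-KO with bHLH151-OE, and bhlh58/151-KO with bhlh58-KO. For the other neighbours in it, no test is given.

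In level, the 182 genes covered a wide range. The WT mean ran from 0.289 to 113.7 FPKM with a median of 8.88, beside a median of 4.81 FPKM over all tested IDs. It was at least 10 FPKM in 84 genes and under 1 FPKM in 14. Of the 182, 164 reached 1 FPKM in all 3 WT libraries, so the other 18 entered the tested table through libraries of other groups, and a low WT value is part of how they were admitted. On the scale used, such low genes need a larger ratio to pass. PAxG10Gg0115700, chosen after its values were seen, had the largest ratio of bhlh151-KO to WT, 35.2, and was at 16.8, 7.90 and 13.5 FPKM in bhlh151-KO and at 0, 0.938 and 0.145 in WT. Its ratio rests on WT values that are uneven and near 0, and a listed 0 may be a value that could not be estimated.

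The summed share of these genes moved with their levels. They held 1.33% to 1.39% of all FPKM in the bHLH151-OE libraries, 0.876% to 0.938% in bhlh58/151-KO, 1.86% to 2.0% in bhlh151-KO, 0.712% to 0.749% in bhlh58-KO, 0.664% to 0.699% in bHLH58-OE and 0.581% to 0.604% in WT. The ranges of the 6 groups did not overlap. Replicate spread of the 182 genes was below that of all tested IDs in the bHLH151 lines and close to it in the other groups. Levels were not matched for this. The median was 4.43 FPKM in bHLH151-OE and 4.30 in bhlh151-KO over all tested IDs, and 21.12 and 30.95 for the 182 genes. The median SD of log2(FPKM + 1) within a group was 0.098 for them and 0.13 for all tested IDs in bHLH151-OE, 0.126 and 0.123 in bhlh58/151-KO, 0.0964 and 0.126 in bhlh151-KO, 0.119 and 0.118 in bhlh58-KO, 0.121 and 0.12 in bHLH58-OE, and 0.123 and 0.117 in WT.

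The form of the IDs, which the rule did not use, was close to that of the table. Of the 182 IDs, 87 carry the letter A (47.8%, beside 47.2% of all tested IDs), 82 the letter G (45.1%, beside 46.1%) and 13 are of the form NewGene (7.14%, beside 6.66%). The number after PAxG, which runs over 19 values, was represented at every value, with a share of tested IDs from 0.209% (number 13) to 0.767% (number 15), and 0.444% over all tested IDs, those without a number included.

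Some of the genes have neighbouring IDs. In the order of the serial numbers, 8 of the 169 IDs with a number and letter stood next to another of the 182 (4.73%), while 0.531% of the other tested IDs stood next to one. These were 4 pairs. One was PAxG01Gg0273500 with PAxG01Gg0273600, and the second was at 23.5, 31.1 and 27.2 FPKM in bHLH151-OE, at 9.36, 8.60 and 10.8 in bhlh58/151-KO, at 42.7, 38.6 and 40.2 in bhlh151-KO and at 12.2, 9.01 and 9.04 in WT. Both of that pair were thus near WT in the double knockout. Another was PAxG09Ag0115800 with PAxG09Ag0115900, at means of 12.3 and 39.7 FPKM in bHLH151-OE, 4.66 and 24.2 in bhlh58/151-KO, 16.1 and 108.0 in bhlh151-KO and 4.49 and 14.2 in WT. The neighbours and pairs named in these sentences were chosen after their values were seen.

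IDs of both letters also occurred at like positions. Of the 169, 80 (47.3%) had another of the 182 with the same number, the other letter and a serial number within 5000, against 21.3% of the other tested IDs. Within 2000 the shares were 26.0% and 9.35%, and both windows were chosen after the IDs were seen. PAxG04Ag0091200 and PAxG04Gg0090100 are such a pair, the second chosen after its values were seen. The second was at 213.2, 213.0 and 212.9 FPKM in bHLH151-OE, at 162.7, 162.5 and 158.1 in bhlh58/151-KO, at 294.0, 292.7 and 301.0 in bhlh151-KO and at 112.8, 100.7 and 99.3 in WT. Its levels were close to those of its partner in every group. PAxG02Ag0145700 and PAxG02Gg0144400 had means of 250.6 and 261.1 FPKM in bhlh151-KO, and 86.6 and 88.9 in WT. The sources used here do not say whether such IDs are copies of 1 gene, nor how reads that match more than 1 copy were counted, so genes of a pair may share reads and are not independent.

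The mirrored rule, at least 1 below WT in both bHLH151 lines and within 0.5 in both bHLH58 lines, found 47 IDs. In the double knockout 42 of these 47 were called lower than WT, beside 16.3% of all tested IDs, with a median difference of -0.69. Against bhlh151-KO, 44 were called higher in the double knockout, beside 15.7%. The mirrored rule used both bhlh151-KO and WT, which favours both directions, so these counts are a description.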

How the data were processed

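The deposited table holds FPKM values, made by the authors, for each gene ID in 18 root libraries; the table's name gives the unit. Among tools, the authors list DESeq2 in the submitters' processing notes, where its role and version are missing. For the aligner, the build and the gene models, the sources used here name nothing.

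Values were transformed as log2(FPKM + 1), and only IDs reaching 1 FPKM in 3 or more libraries were tested. Fold changes on this scale understate changes of low genes. Group means were fitted to all 18 libraries together in limma 3.58.1 under R 4.3.3 (eBayes, trended and robust), and p-values were adjusted by Benjamini-Hochberg over all tested IDs in each of 4 comparisons (threshold 0.05). The procedure was tested on simulated data. The members and lists were chosen with earlier results of these data known. Depth is unknown, so no interval for counting error is given.

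Few IDs are named, since they carry no gene names. Among members with at least 5 FPKM in a bHLH151 line, the naming rule took the 2 with the largest smaller difference. From the same members it took, per comparison, the 2 highest and 2 lowest called without overlap. With no level filter it took the 2 IDs on each side of the threshold, and the member with the highest mean in bhlh151-KO. The marker lists fixed for other cell types matched 0 IDs and were not used.

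Other settings tried were bHLH58 lines within 0.25 of WT, a pseudocount of 0.1, no filter on low values, median-of-ratios, TPM and quantile scaling, a replicate block, fits of the 2 groups alone, and each library left out.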

Additional observations from a re-analysis of the deposited data

How the results depend on the processing

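The rule found 301 IDs under median-of-ratios scaling, with all 182 among them, and 55 with the bHLH58 lines held within 0.25 of WT. It found 238 with a pseudocount of 0.1 (145 shared), 204 after rescaling to TPM (164 shared), 213 under quantile normalization (157 shared), and 173 to 195 with 1 library left out, and 105 IDs were kept whichever of the 15 libraries was left out. Median-of-ratios scaling gave a median difference of all tested IDs of 0.0007 in bhlh151-KO against WT, where the deposited values gave -0.11; the median of the 182 was 1.79 and 1.65, in that order.

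Members called higher in bhlh58/151-KO than in WT numbered 143 to 156 under the 7 other settings and 136 to 144 with 1 library left out (0 to 1 lower, the 1 without bhlh58/151-KO replicate 2). Higher than in bhlh58-KO there were 72 to 100, and 64 to 82 with 1 library left out. Lower than in bhlh58-KO there were 2, but 1 with a pseudocount of 0.1, without the filter and under quantile normalization, 0 under median-of-ratios scaling and with only both groups, and 0 to 1 with 1 library left out. Against bhlh151-KO, 165 to 172 were lower, 163 to 168 with 1 library left out (0 to 1 higher, the 1 without bhlh151-KO replicate 3). In bHLH151-OE against bhlh151-KO, 111 to 123 were lower, 105 to 112 with 1 library left out. The 1 higher member became 0 with a pseudocount of 0.1, without the filter, under median-of-ratios and TPM scaling and with only both groups (0 to 1 with 1 library left out). The cause of these changes was not tested.

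The naming rule gave 10 pairs of an ID and a comparison, with 130 values under alternatives. Of these, 113 kept direction and call, 17 lost the call, all in the 2 members called lower than in bhlh58-KO, and 0 reversed. PAxG13Gg0037500, chosen after its values were seen, is not among these pairs, and its lost calls are given above. Same-numbered libraries did not deviate together (correlations -0.168 to 0.0693, 8 of 18 libraries closest to their own number). With the replicate block, 151, 83, 168 and 117 members were called in the main direction of the 4 comparisons. Depth is unknown, so low members cannot be given a counting error.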
